A study of Mus musculus with 89 samples.

Results

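Apolipoprotein and chylomicron assembly genes were followed from the crypt to the villus tip of the mouse jejunum and across its single cell types. The 10 genes were chosen by name: 5 apolipoproteins (Apoa1, Apoa4, Apob, Apoc2 and Apoc3), 3 genes of triglyceride synthesis and transfer (Mttp, Dgat1 and Mogat2), the lipid droplet gene Cidec and the transcription factor gene Creb3l3. All 10 were found in both deposited tables, among 27538 genes measured in clumps of neighbouring cells and 23379 genes measured in single cells.

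Enterocytes absorb dietary fat as fatty acids and monoacylglycerol and build it back into triglyceride inside the cell. Mogat2 adds an acyl chain to monoacylglycerol and Dgat1 catalyses the last step to triglyceride. Microsomal triglyceride transfer protein, encoded by Mttp, loads that lipid onto apolipoprotein B in the endoplasmic reticulum, and the resulting chylomicron carries further apolipoproteins to the lymph. Enterocytes are born in the crypt and move up the villus until they are shed at its tip.

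All mice were wild-type C57BL/6 animals with free access to food. By their labels they were 3 months old, except that 3 plates of 1 single-cell mouse were labelled with 4 months. Clumps were released from the jejunum with EDTA and sorted by their DNA content with Hoechst: pairs of cells (4n) came from mice 1 to 5, larger clumps (above 4n) from 3 of these mice (1, 4 and 5), and clumps above 2n from mouse 6, which was described only. Single cells came from mice numbered 1 to 4, and whether any of these is also a clump mouse is not given in the sources used here. They were gated on Epcam, CD45 and CD24, with gates that enriched for enteroendocrine and tuft cells on some plates. Times of the last meal are not given in the sources used here.

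Each well was read by MARS-seq, which tags the 3′ end of each RNA molecule with a unique molecular identifier (UMI), so a transcript counts once whatever its length and levels can be set side by side between genes. Of 15626 wells of mice 1 to 5, 5883 clumps were kept and given a zone: 3744 crypt, 1135 mid-villus and 1004 tip. They held 32850395 UMIs, and the sums per mouse and zone ran from 69227 to 19329863 UMIs. Levels are given in CPM, a gene's share of all UMIs in such a sum, where 24869.9 CPM corresponds to 2.49% of UMIs, and the mouse was the replicate. Zones came from 63 landmark genes of enterocytes. Apoa4, Cidec and Creb3l3 are tip landmarks in the study's own list, and they were left out of the axis together with the other lipid genes in it, so that no member placed a clump. The tip marker Ada averaged 22.5, 74.7 and 2896 CPM in crypt, mid-villus and tip clumps, while ribosomal protein genes, which make up most of the crypt landmarks, held 13.2%, 2.504% and 1.72% of UMIs.

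Other measures moved along the same axis. Paneth cell markers averaged 8307 ± 8509 CPM in crypt clumps (SD, n = 5), from 16.3 in mouse 2 to 21842 in mouse 1, 397 in mid-villus and 224 in tip, goblet markers to 1574, 1834 and 3470, and mitochondrial genes held 8.26%, 11.3% and 10.9% of UMIs. Mouse 5 had the highest mitochondrial shares, 18.7% to 21.2%. In pooled clumps, fewer enterocytes and less RNA per enterocyte cannot be told apart.

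Apoa1, Apoc3 and Apoa4 lie side by side within 14.88 kb of chromosome 9 (GRCm38), at chr9:46228580-46230466, chr9:46232933-46235636 and chr9:46240696-46243459, with Apoc3 on the minus strand. Apob lies at chr12:7977648-8016835 and Apoc2 at chr7:19671579-19677941. Mttp lies at chr3:138089854-138144968, Dgat1 at chr15:76502015-76511953, Mogat2 at chr7:99219084-99238619, Cidec at chr6:113424634-113435760 and Creb3l3 at chr10:81084324-81098874. The exons of Apoc2 share 646 bases on the same strand with Gm44805, so reads from those bases could belong to either gene. Opposite-strand genes share 634 exon bases with Apoa4 (Gm47528) and 457 with Mttp (Trmt10a), and by the study's methods the counting was set to the strand of the library.

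The sequences before the start sites of Apoa1, Apoa4, Apob and Apoc2 are shown because these genes rose from crypt to tip, and they are the apolipoprotein members with an entry in the sequence table. They come from RefSeq (GRCm38.p6), run 5′ to 3′ on the gene's strand, and are limited to bases outside annotated exons. Capitals mark letters that match CAAAGNNCA, a core bound by HNF4 factors, AGGTCA, a core bound by nuclear receptors, or TATAAA, the TATA box, on either strand.
Apoa1, chr9:46228380-46228579, plus strand: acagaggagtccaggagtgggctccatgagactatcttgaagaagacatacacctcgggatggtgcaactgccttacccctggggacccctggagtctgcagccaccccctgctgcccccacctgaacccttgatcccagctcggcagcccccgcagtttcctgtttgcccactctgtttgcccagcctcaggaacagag
Apoa4, chr9:46240594-46240695, plus strand: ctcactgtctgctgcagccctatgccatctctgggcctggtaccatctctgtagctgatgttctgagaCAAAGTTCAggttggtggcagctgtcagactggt
Apob, chr12:7977427-7977647, plus strand: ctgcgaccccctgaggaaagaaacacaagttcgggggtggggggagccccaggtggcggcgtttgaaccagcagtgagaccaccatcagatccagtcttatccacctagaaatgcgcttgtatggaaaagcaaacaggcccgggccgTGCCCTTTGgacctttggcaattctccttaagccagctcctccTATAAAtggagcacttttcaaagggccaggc
Apoc2, chr7:19677942-19678082, minus strand: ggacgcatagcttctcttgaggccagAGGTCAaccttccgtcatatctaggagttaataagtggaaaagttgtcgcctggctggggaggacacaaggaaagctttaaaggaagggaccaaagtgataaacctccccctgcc

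CAAAGNNCA was found before the starts of Apoa4, Apob and Creb3l3, and in the 250 bases before the start of 5.49% of 32851 mouse promoters. AGGTCA was found before Apoc2 and Creb3l3 and in 14.0% of all promoters, TATAAA before Apob and in 12.4%, and TGACGT, the core of a cyclic AMP response element, before Mttp and in 6.47%. Creb3l3 has 2 entries, and both of its matches lie before an internal start, none before the outer start of the annotated gene. The match of Mttp also lies before a start inside the annotated gene. Some matches to CAAAGNNCA and AGGTCA can overlap, 7 of the 10 genes had an entry, and a match describes letters only.

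Between crypt and tip, all 10 genes rose in clumps (edgeR's quasi-likelihood test, adjusted p below the 0.05 threshold for each). Of 6437 genes tested, 52.9% were called, 22.9% higher and 30% lower at the tip. The rise ran from 1.03 ± 0.30 (SE) on the log2 scale for Mogat2 to 5.88 ± 0.52 for Apoa4. Summed over the 10 genes, the level was 3338 ± 1403 CPM (SD, n = 5 mice) in crypt, 24869.9 ± 3906 in mid-villus and 48744 ± 11377 in tip, or 0.334%, 2.49% and 4.87% of all UMIs. In the upper villus the order of the zones differed between genes: the apolipoproteins, Cidec and Creb3l3 were higher at the tip than in mid-villus in 5 of 5 mice, whereas Mttp and Mogat2 were lower in 5 of 5.

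**Figure D1:**
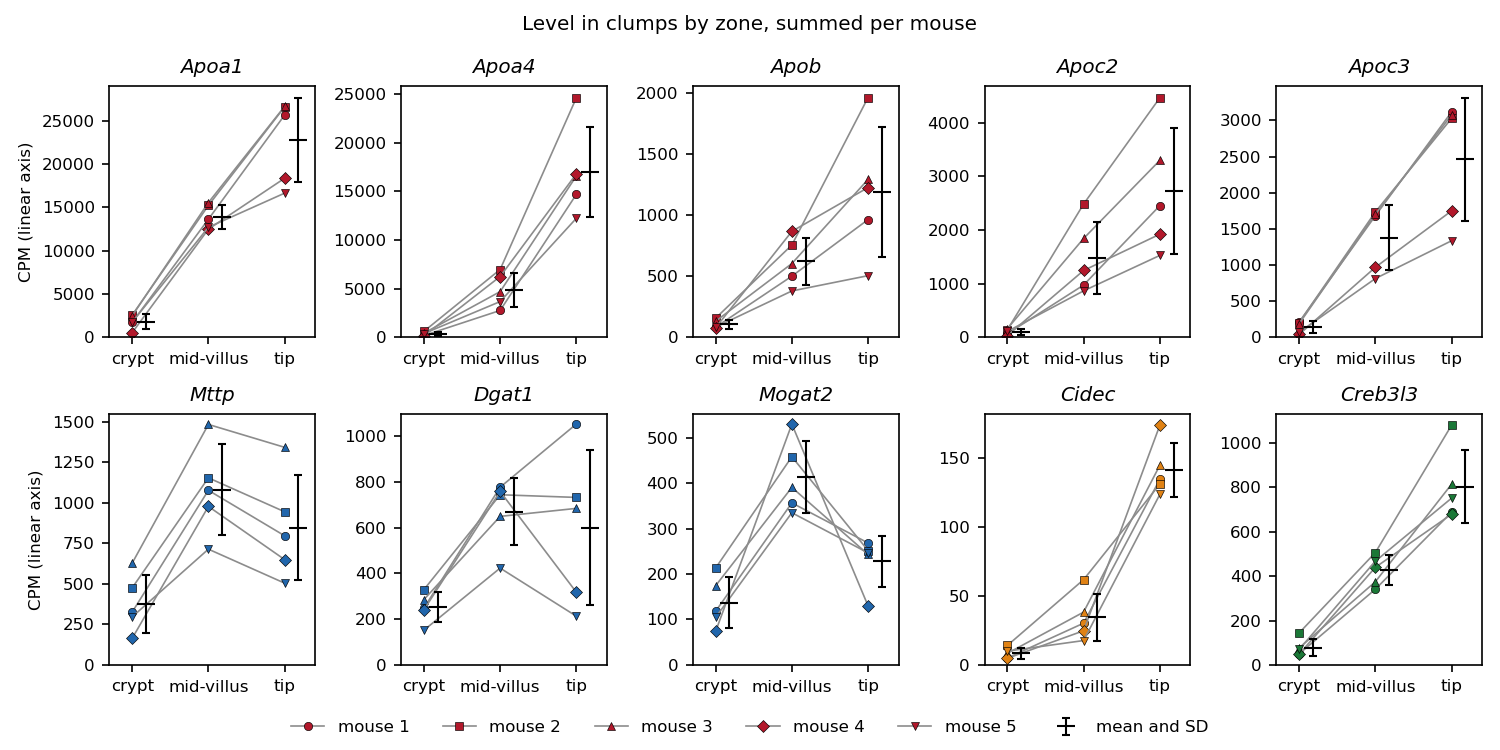
CPM of each gene (linear y axis, from 0) in crypt, mid-villus and tip clumps, 1 line per mouse with the mean and SD of 5 mice beside it. All 5 apolipoproteins, Cidec and Creb3l3 were highest at the tip in every mouse, while the highest zone of Mogat2 and Mttp was mid-villus in every mouse and that of Dgat1 differed between mice.

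Apoa1, the main protein of high-density lipoprotein and a surface protein of chylomicrons, was the most abundant member in every zone. In mice 1 to 5 its tip level was 25641, 26586, 26642, 18345 and 16629 CPM, against 13619.9, 15209, 15537, 12474 and 12688 in mid-villus and 1706, 2548, 2482, 523 and 1747 in crypt. The 3 zones did not overlap. It rose by 3.89 ± 0.44 (log2, SE) from crypt to tip (edgeR adjusted p = 7.2e-07) and by 2.98 ± 0.42 from crypt to mid-villus (1.5e-05). The step from mid-villus to tip, 0.91 ± 0.39, did not pass (adjusted p = 0.16), but it passed with the mouse as a block (0.87 ± 0.23, edgeR adjusted p = 0.0056).

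Apoa4, an intestinal apolipoprotein made during fat absorption, had the largest fitted rise from crypt to tip, 5.88 ± 0.52 on the log2 scale (edgeR adjusted p = 7.6e-08). Its tip level in mice 1 to 5 was 14677, 24601, 16572, 16785 and 12222 CPM, against 2747, 6957, 4683, 6236 and 3659 in mid-villus and 169, 599, 410.3, 139 and 371 in crypt. The lowest tip value was above the highest mid-villus value. The gain from mid-villus to tip was 2.02 ± 0.43 on the log2 scale (edgeR adjusted p = 0.0059). Apoa4 reached 0.754 ± 0.163 UMIs per Apoa1 UMI at the tip (SD, n = 5), against 0.350 ± 0.125 in mid-villus and 0.196 ± 0.0655 in crypt, and this ratio increased in the same order in 5 of 5 mice.

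Apob, the structural protein on which each chylomicron is built, was measured at 965, 1966, 1294, 1228 and 505 CPM at the tip of mice 1 to 5. Mid-villus held 501, 756, 604, 868 and 379 CPM and crypt 82.1, 156, 131, 77.9 and 82.2. The tip and mid-villus ranges overlapped through mouse 5, yet each mouse was higher at the tip, and the step of 1.16 ± 0.33 passed the test (edgeR adjusted p = 0.034). From crypt to tip it rose by 3.74 ± 0.36 (1.9e-07).

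Apoc2, the activator of lipoprotein lipase, rose by 5.03 ± 0.50 from crypt to tip (edgeR adjusted p = 2.4e-07). Its tip values were 2454, 4465, 3299, 1921 and 1525 CPM, its mid-villus values 972, 2484, 1842, 1244 and 864, and its crypt values 64.3, 138, 160.4, 30.9 and 107. Apoc3, which inhibits that lipase, rose by 4.40 ± 0.45 (3.2e-07). Its tip values were 3117, 3028, 3075, 1748 and 1334 CPM, its mid-villus values 1680.0, 1733, 1702, 967 and 811, and its crypt values 208, 203, 186, 37.6 and 67.3. Tip and mid-villus ranges overlapped for both genes, although the tip was higher within each mouse. Neither upper step passed without the mouse block (1.13 ± 0.43 for Apoc2, 1.06 ± 0.40 for Apoc3, both with an edgeR adjusted p of 0.11), and both passed with it (1.08 ± 0.23, adjusted p = 0.00070, and 1.01 ± 0.21, adjusted p = 0.00048).

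Mttp, the gene of the transfer protein, was highest in mid-villus in each mouse. Its mid-villus values were 1077, 1154, 1484, 978 and 714 CPM, against 797, 945, 1343, 650.0 and 505 at the tip and 326, 476, 628, 164 and 297 in crypt. The ranges of mid-villus and tip overlapped, and the difference of -0.13 ± 0.32 did not pass (edgeR adjusted p = 0.87). It rose by 1.54 ± 0.33 from crypt to mid-villus (0.00088) and by 1.41 ± 0.33 from crypt to tip (0.0013). Apob UMIs per Mttp UMI went from 0.308 ± 0.103 in crypt to 0.589 ± 0.191 in mid-villus and 1.43 ± 0.521 at the tip, increasing in 5 of 5 mice.

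Mogat2, the acyltransferase of the monoacylglycerol route, was highest in mid-villus, at 357, 458, 391, 530.2 and 335 CPM. Tip clumps held 268, 252, 243, 130.0 and 247 CPM and crypt clumps 118, 213, 175, 74.0 and 105. The tip range lay wholly below the mid-villus range, though the tip value of mouse 4 rests on 9 UMIs. The difference of -0.61 ± 0.30 did not pass (edgeR adjusted p = 0.22) and passed with the mouse as a block (-0.64 ± 0.22, adjusted p = 0.034). From crypt to mid-villus Mogat2 rose by 1.64 ± 0.30 (0.00017).

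Dgat1, which completes triglyceride, went from 249, 329, 286, 241 and 152 CPM in crypt to 777, 744, 649, 758 and 423 in mid-villus, a rise of 1.44 ± 0.34 (edgeR adjusted p = 0.0018). Its tip values were 1053, 732, 684, 318 and 213 CPM, higher than mid-villus in 2 of 5 mice, and those of mice 4 and 5 rest on 22 and 19 UMIs. Tip and mid-villus differed by 0.07 ± 0.33 (adjusted p = 0.93). Counted against the 3 transfer and synthesis genes together, the 5 apolipoproteins gave 3.17 ± 0.953 UMIs per UMI in crypt, 10.4 ± 1.52 in mid-villus and 29.2 ± 6.55 at the tip (SD, n = 5), in that order in 5 of 5 mice.

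Cidec, a protein that joins and enlarges lipid droplets, was the least abundant member and had the largest step in the upper villus. Its tip values were 134, 131, 144, 173 and 123 CPM, its mid-villus values 30.2, 61.7, 38.2, 24.7 and 17.6, and its crypt values 5.03, 14.1, 8.38, 4.81 and 9.97. No 2 zones overlapped, but the mid-villus value of mouse 5 rests on few Cidec UMIs, in a sum of 113413 UMIs over all genes. It rose by 2.16 ± 0.32 from mid-villus to tip (edgeR adjusted p = 0.00019) and by 4.49 ± 0.35 from crypt to tip (1.9e-08). At least 1 Cidec UMI was seen in 3.30%, 8.07% and 20.6% of clumps per mouse on average in crypt, mid-villus and tip.

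Creb3l3 encodes CREBH, a membrane-bound transcription factor that activates apolipoprotein genes, Apoa4 among them. It was measured at 688, 1079.7, 814, 679 and 751 CPM at the tip, 341, 506, 375, 439.5 and 467 in mid-villus and 49.9, 144, 76.6, 48.4 and 69.8 in crypt. The zones did not overlap. Its rise was 2.51 ± 0.34 from crypt to mid-villus (edgeR adjusted p = 1.1e-05) and 1.12 ± 0.33 from mid-villus to tip (0.038).

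Counted together, 10 of 10 members were higher in mid-villus than in crypt (39.4% of all genes called, 15.8% higher and 23.6% lower), and 4 of 10 were higher at the tip than in mid-villus (8.11% of all genes called, 4.85% higher and 3.26% lower). The 4 were Apoa4, Apob, Cidec and Creb3l3. Apoa4 and Cidec passed whichever mouse was left out, Apob did not pass without mouse 1, 2 or 3 (edgeR adjusted p = 0.085, 0.12 and 0.13), and Creb3l3 did not pass without mouse 1, 2, 3 or 5 (adjusted p = 0.056 to 0.14). On an axis set by Ada and the ribosomal share alone, none of the 4 passed in edgeR's test, which called 3 of 6913 genes on that axis, with changes of 1.58 for Apoa4, 0.80 for Apob, 1.80 for Cidec and 0.70 for Creb3l3. With the mouse as a block, which uses the fact that the zones of a mouse come from the same animal, 7 were higher and Mogat2 was lower, where 774 of 6437 genes were called higher and 743 lower. The members' crypt levels have a background to be set against: in 159 near-empty wells, at the 4 plate positions that held the fewest UMIs, the 10 genes summed to 9254 CPM, and 9 of 10, all but Cidec, were above their mean in crypt clumps. Per well, these held 0.918 Apoa1 UMIs against 7.17 per crypt clump, which is 12.8%. For Apoa4 that share was 34.5%. With the mean of these positions subtracted per plate, 10 of 10 members were still called higher at the tip than in crypt. Their median change was 3.91 on the log2 scale, beside 3.81 without subtraction, where 1560 of 6361 genes were called higher and 1868 lower. From crypt to mid-villus 10 of 10 were higher too, with a median of 2.68 beside 2.54 (1310 genes higher, 1394 lower). The part of free RNA in the crypt values was not tested beyond this. Alb, Ttr, Serpina1a and Fgb, markers of hepatocytes, which also make apolipoproteins, together gave 494 of 27099753 UMIs in crypt, 114 of 3678219 in mid-villus and 57 of 2072423 at the tip, and their part in the members' levels was not tested.

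A finer position, the summed tip landmarks over tip plus crypt landmarks, split the clumps into 6 bins of equal clump number. The apolipoproteins, Cidec and Creb3l3 were highest in bin 6, the tip end, in 5 of 5 mice. Mttp was highest in bin 5 in 5 of 5, and Mogat2 in bin 5 in 4 and in bin 4 in 1. With all landmarks but the members setting the position, Mttp was highest in bin 6 in 2 of 5 mice and the highest bin mean of Mogat2 moved to bin 4, and with clumps of over 1000 UMIs each was highest in bin 6 in 1 mouse. Dgat1 was highest in bin 4 in 1 mouse, bin 5 in 1 and bin 6 in 3. At bin 4, Mogat2 already stood at 95.7% of its highest bin mean, Mttp at 82.5% and Dgat1 at 79.9%, when Apoa1 stood at 25.8%, Apob at 25.1%, Creb3l3 at 23.9%, Cidec at 11.4% and Apoa4 at 6.45%. Dgat1, Mogat2 and Mttp passed 50% of their highest mean at bin 4, Apoa1, Apob, Apoc2 and Apoc3 at bin 5, and Apoa4, Cidec and Creb3l3 at bin 6.

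Cidec went from 1.05 CPM in bin 1, where mice 2 and 5 had no UMI and the other 3 at most 2.10 CPM, to 187 CPM in bin 6, so its fold is not given. The span from bin 1 to the highest bin was 119-fold for Apoa4, from 160 to 19020 CPM, and 67.7-fold for Apoa1, from 364 to 24650 CPM. It was 15.9-fold for Mogat2, 10.4-fold for Mttp and 8.27-fold for Dgat1. Bin 6 held as few as 8 clumps in 1 mouse. Among 5026 genes that are neither members nor landmarks, the levels most like the summed members over the 30 mouse and bin values were those of Cdhr2 (Pearson's r = 0.976), Alpi (0.968), Clca4b (0.965), Ceacam20 (0.964) and Grina (0.964). Cdhr2 is a brush border cadherin and Alpi the intestinal alkaline phosphatase. The members' own r with that sum, which contains them, ran from 0.807 for Mogat2 to 0.993 for Apoa1. These points share mice and libraries, so r is a description.

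**Figure D2:**
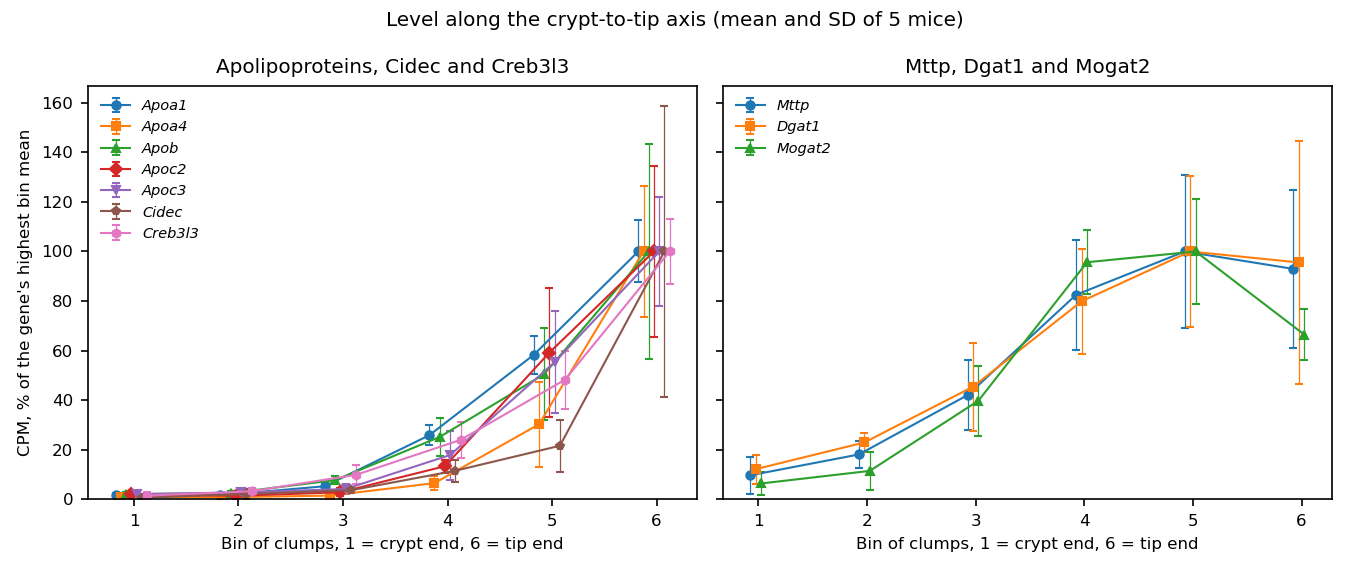
Level in 6 bins along the axis (x, 1 at the crypt end, 6 at the tip end) as percent of the gene's highest bin mean (y), points and bars giving the mean and SD of 5 mice. All 7 means on the left are highest in bin 6, and the 3 on the right in bin 5, with Mogat2 at 66.4%, Mttp at 93.0% and Dgat1 at 95.6% of that mean in bin 6.

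Clump size was compared within each zone to see whether the members' levels depended on it. No member passed edgeR's test between larger clumps (mice 1, 4 and 5) and pairs (mice 1 to 5) in any zone, which with 3 mice of larger clumps does not show that the levels were alike, and 1, 1 and 3 genes of 5852 were called in crypt, mid-villus and tip (0.0171%, 0.0171% and 0.0513%). At an unadjusted p under 0.05 there were 204, 162 and 423 genes, and DESeq2 called 0, 0 and 31 genes, none of them among the members it tested (10, 10 and 8). The summed members stood at 3976 ± 1425 CPM in crypt pairs and 2162 ± 889 in larger crypt clumps, 26796 ± 6988 and 20921 ± 4502 in mid-villus, and 45887 ± 17677 and 37312 ± 5547 at the tip (SD, n = 5 and 3). Some of these sums were small. Tip pairs were 6 clumps with 4763 UMIs in mouse 4 and 11 clumps with 9590 UMIs in mouse 5. Mid-villus pairs of mouse 5 were 7 clumps with 5563 UMIs. The median member difference was -0.77, 0.09 and -0.18 on the log2 scale in the 3 zones, beside 0.12, 0.09 and -0.04 over all genes. These medians depended on single mice: the crypt value was -0.40 without mouse 4 and -1.38 without mouse 5, and with 1 mouse left out the mid-villus value ran from -0.19 (without mouse 5) to 0.15 (without mouse 1) and the tip value from -0.51 (without mouse 5) to 0.05 (without mouse 1), so no direction is drawn from them. Cidec had a difference of -1.22 ± 0.53 in crypt and -1.36 ± 0.58 in mid-villus, each with an edgeR adjusted p of 1.

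Cells sorted as single cells were sequenced apart from the clumps and given zones by the same landmarks and rule. The landmark values were scaled anew over the single cells, so zones of the same name need not be the same position. Ada averaged 41.4, 93.8 and 1619 CPM in crypt, mid-villus and tip cells. Of 5199 single cells kept, 2545 fell in the enterocyte-like cluster, found without the members, and 2494 of them were given a zone: 413 crypt, 851 mid-villus and 1230 tip. By another rule, the marker list with the highest sum of at least 10 UMIs, 1500 of the 2545 were enterocytes. No cluster was named for stem and dividing cells or for Paneth cells. The crypt sum of mouse 1 rests on 8 cells. The summed members reached 4838, 4041, 2508 and 5383 CPM in crypt cells of mice 1 to 4, 18167, 14943, 10998 and 21298 in mid-villus and 20722, 23697, 15532 and 29028 at the tip. All 10 genes were higher in mid-villus than in crypt (edgeR, 34.5% of 4193 genes called, 16.1% higher and 18.4% lower). Between crypt and tip 9 of 10 were higher (59.7% called, 31.4% higher and 28.3% lower), the exception being Mogat2.

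Apoa4 stood at 7678, 9338, 6049.6 and 9881 CPM in tip cells of mice 1 to 4, at 5301, 3789, 2667 and 4417 in mid-villus cells and at 1005, 539.7, 294 and 529.9 in crypt cells, without overlap. Its rise from mid-villus to tip was 1.49 ± 0.35 (edgeR adjusted p = 0.0058). Cidec stood at 37.8, 90.9, 41.7 and 80.7 CPM at the tip and at 21.2, 18.997, 23.2 and 35.8 in mid-villus, also without overlap, and rose by 1.83 ± 0.31 (0.00053). Crypt cells held 0, 9.72, 8.60 and 6.71 CPM of Cidec.

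Apob rose by 1.17 ± 0.36 from mid-villus to tip cells (edgeR adjusted p = 0.026), from 1204 ± 389 to 1922 ± 497 CPM (SD, n = 4). Creb3l3 rose by 1.16 ± 0.32 (0.015), from 308 ± 51.2 to 496 ± 149 CPM. Apoa4, Apob, Cidec and Creb3l3 were thus the 4 of 10 called here as in clumps, and 21.3% of all genes were called in this comparison, 11.2% higher and 10.2% lower. Cidec passed whichever mouse was left out, and the other 3 did not pass without mouse 2 (edgeR adjusted p = 0.079, 0.16 and 0.18 for Apoa4, Apob and Creb3l3) or mouse 4 (0.083, 0.15 and 0.15), nor did Apob and Creb3l3 without mouse 3 (0.097 and 0.066). Apoa1 (0.69 ± 0.38, adjusted p = 0.19) and Apoc3 (0.83 ± 0.35, adjusted p = 0.088) were higher at the tip in 4 of 4 mice without passing, and Apoc3 passed with the mouse as a block (0.89 ± 0.25, edgeR adjusted p = 0.0026). Apoc2 stood at 1117 ± 289 CPM in mid-villus and 1143 ± 251 at the tip, with a fitted difference of 0.52 ± 0.36 (adjusted p = 0.3).

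On the CPM scale the 3 transfer and synthesis genes were lower at the tip than in mid-villus in 4 of 4 mice. Mogat2 held 62.8, 126, 105 and 164 CPM in crypt cells of mice 1 to 4, 117, 218, 213 and 208 in mid-villus and 55.6, 87.5, 75.4 and 92.6 at the tip, lower than mid-villus without overlap. Its fitted difference between mid-villus and tip was -0.76 ± 0.30 (edgeR adjusted p = 0.07) and passed with the mouse block (-0.74 ± 0.22, adjusted p = 0.0045). Mttp held 624, 811, 801 and 732 CPM in mid-villus and 429, 446, 411 and 445 at the tip, without overlap, and Dgat1 518, 530.4, 453 and 577 against 384, 444, 431 and 462. The fit scales libraries by trimmed means over genes and not by total UMIs, and on that scale the differences were -0.24 ± 0.31 for Mttp and 0.24 ± 0.36 for Dgat1 (adjusted p = 0.59 and 0.65). The scale also matters against crypt: Mttp tip values were above crypt in 1 of 4 mice in CPM, yet the fit gave a rise of 1.12 ± 0.32 (edgeR adjusted p = 0.0048), and Mogat2 was below crypt in 4 of 4 in CPM while the fit gave 0.31 ± 0.32 (adjusted p = 0.42).

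Ratios within a sum do not depend on the scaling. Apolipoprotein UMIs per transfer and synthesis UMI were 3.79 ± 1.37, 10.2 ± 3.36 and 21.9 ± 4.86 in crypt, mid-villus and tip cells (SD, n = 4). Apoa4 UMIs per Apoa1 UMI were 0.315 ± 0.144, 0.562 ± 0.113 and 1.00 ± 0.145. Both increased toward the tip in 4 of 4 mice, as they had in clumps.

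**Figure D3:**
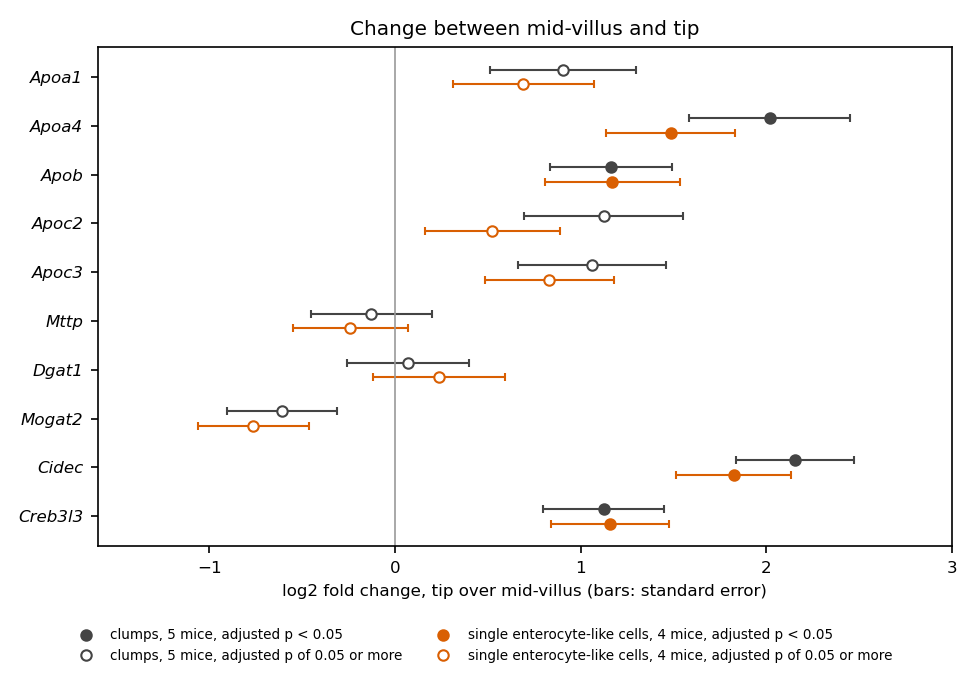
Log2 fold change from mid-villus to tip (x, positive means higher at the tip) for each gene, with standard errors, in clumps of 5 mice and single enterocyte-like cells of 4 mice. Filled points passed the 0.05 threshold, namely Apoa4, Apob, Cidec and Creb3l3 in both data sets, and Mogat2 lies at -0.61 and -0.76.

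Across single cell types the mean level of each member was highest in enterocyte-like cells. The summed level in enterocyte-like cells was 20125, 16817, 9525 and 22047 CPM in mice 1 to 4, against 3015, 1521, 839 and 1496 in goblet-like cells. It averaged 956 ± 379 in enteroendocrine-like cells (SD, n = 4), 895 ± 717 in the T and NK lymphocyte-like cluster, which may also hold myeloid-type cells that were not counted, 874 ± 669.8 in tuft-like cells and 547 ± 463 in B and plasma-like cells (n = 3 each for the last pair). In the summed level, the lowest enterocyte-like mouse was above every mouse of every other type. For Apoc2 and Apoc3 taken singly, the enterocyte-like range overlapped that of the next type. These levels are a description and were not tested, and some rest on few cells, down to 6 tuft-like cells in mouse 3.

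**Figure D4:**
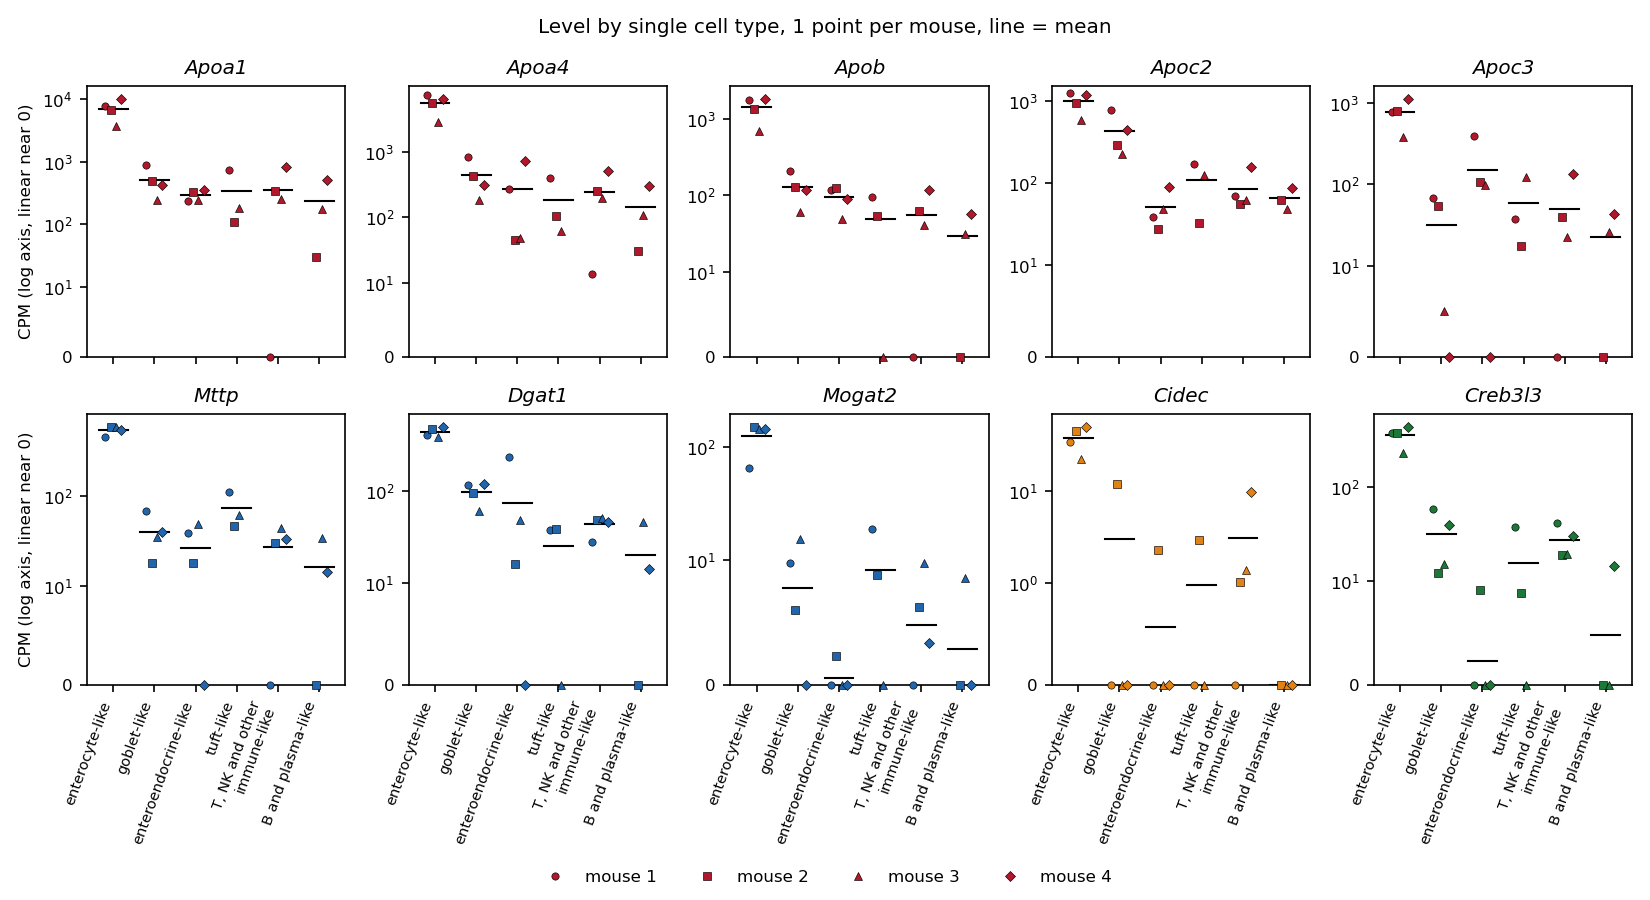
CPM of each gene (log y axis, linear near 0) in 6 single cell types, 1 point per mouse with a line at the mean. Enterocyte-like cells are highest for all 10 genes, and Apoc2 in goblet-like cells, at 428 ± 245 CPM, stands above the remaining types.

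The median member stood at 7.97% of its enterocyte-like level in goblet-like cells, 5.77% in T and NK lymphocyte-like, 5.32% in tuft-like, 4.86% in enteroendocrine-like and 2.80% in B and plasma-like cells. The highest share of any member in any of these types was that of Apoc2 in goblet-like cells, 44.0%. Its goblet-like level was 771, 287, 222 and 433 CPM in mice 1 to 4, overlapping the enterocyte-like range of 1239.5, 921, 577 and 1157. Every goblet-like mouse was above every mouse of the next type, tuft-like cells, with 168, 32.3 and 123 CPM. Mice 1 to 3 had 19, 156 and 6 tuft-like cells, and mice 1 to 4 had 45, 80, 71 and 15 goblet-like cells. For comparison, Apoa1 averaged 509.8 ± 267 CPM in goblet-like against 7063 ± 2648 in enterocyte-like cells, and Apoc3 31.8 ± 34.4 against 762 ± 299.

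At least 1 Apoc2 UMI was seen in 71.1%, 40%, 35.2% and 33.3% of the goblet-like cells of mice 1 to 4 (94 of 211 cells in all, median depth 1991 UMIs). The same share was 4.88%, 3.52%, 4.87% and 11.0% in T and NK lymphocyte-like cells (100 of 1876 in all, median depth 896.5), where lymphocytes should lack it, although any myeloid-type cells in this cluster may express it. With each cell thinned to 500 UMIs, the shares were 19.02% of 205 goblet-like cells and 3.21% of 1528 T and NK lymphocyte-like cells, leaving out 6 and 348 shallower ones, and 34.5% of enterocyte-like cells. For Apoa1 the thinned shares were closer, 17.6% in goblet-like and 9.36% in T and NK lymphocyte-like cells. The next highest share was that of Dgat1 in goblet-like cells, 22.3% of its enterocyte-like level. Dgat1 averaged 97.9 ± 26.9 CPM there and 43.1 ± 10.5 in T and NK lymphocyte-like cells, without overlap between their ranges.

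In enteroendocrine-like cells the highest share was that of Apoc3, at 19.4% of its enterocyte-like level, with 389, 106, 97.1 and 0 CPM in mice 1 to 4. These rest on 10, 47, 2 and 0 UMIs, and 216 of the 244 cells came from mouse 2. The spread between mice was larger than the mean of 148 CPM, and the range overlapped that of enterocyte-like cells.

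Other lipid genes were taken from 6 lists by role, 66 genes in all, of which 64 were in the clump table and 47 passed the filter on low counts. From crypt to tip 28 rose and 1 fell, where 22.9% of all genes tested were called higher and 30% lower, with a median change of 1.05 on the log2 scale beside -0.07. From crypt to mid-villus 25 rose and 1 fell (15.8% and 23.6% of all genes). Between mid-villus and tip 4 of 47 rose and none fell in edgeR's test (4.85% and 3.26% of all genes), with a median of 0.09 beside -0.08. Counts for these lists are without the mouse as a block, which raised the genes called between mid-villus and tip from 522 to 1517 of 6437. For fatty acid uptake and activation 6 of 9 rose from crypt to tip. Fabp2, the intestinal fatty acid binding protein, averaged 2377, 18848 and 18214 CPM in crypt, mid-villus and tip (3.21 ± 0.48, edgeR adjusted p = 1.6e-05). Slc27a4, a fatty acid transporter, averaged 123, 560 and 697 CPM, and Acsl5, which activates fatty acids, 302, 1173 and 769.

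Of the glycerolipid synthesis genes 7 of 9 rose. Dgat2, the other triglyceride-forming enzyme, averaged 56.3, 181 and 279.7 CPM in crypt, mid-villus and tip and was higher at the tip than in mid-villus in 5 of 5 mice, while Agpat9 (Gpat3), which starts glycerolipid synthesis, averaged 45.3, 147 and 132, and Lpin3, a phosphatidic acid phosphatase, 15.8, 27.4 and 40.9. Of the assembly and export genes 7 of 11 rose. Sar1b, the coat GTPase needed for chylomicron export, averaged 72.3, 191 and 158 CPM, Tm6sf2 152, 385 and 288, and Pla2g12b 47.7, 111 and 116. Of the droplet and lipolysis genes 5 of 7 rose, among them Lipa, the lysosomal acid lipase, at 7.44, 39.99 and 79.7 CPM (3.83 ± 0.38, edgeR adjusted p = 2.2e-07), Lipe, hormone-sensitive lipase, at 14.2, 60.3 and 82.1, and Plin3, a droplet coat protein, at 141, 324 and 444.

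Among 11 transcription factors tested, 3 rose from crypt to tip and 1 fell, a share of rises near the 22.9% of all genes. Klf4, a factor of differentiated epithelium, averaged 49.6, 255 and 735 CPM (4.11 ± 0.38, edgeR adjusted p = 1.2e-07), and Hnf4a, a regulator of enterocyte and apolipoprotein genes, averaged 349, 314 and 468 (0.65 ± 0.24, adjusted p = 0.029). Hnf4g averaged 34.6, 74.3 and 32.7 CPM and did not pass (0.52 ± 0.52, adjusted p = 0.42), and Ppara, at 7.86, 7.05 and 4.59, was too low to test. Prdm1 (4.47 ± 0.55) was the third to rise and the bile acid receptor Nr1h4 (-1.24 ± 0.41, edgeR adjusted p = 0.015) was the one that fell, both named after their values were seen. The other apolipoproteins averaged at most 10.2 CPM in any zone, the value of Apoe at the tip, and none passed the filter. The 4 that rose between mid-villus and tip were Klf4 (1.72 ± 0.35, edgeR adjusted p = 0.0037), Lipa (1.16 ± 0.35, adjusted p = 0.045) and, named after their values were seen, Acsl3 (4.12 ± 0.56, adjusted p = 9.0e-05) and Prdm1 (2.75 ± 0.57, adjusted p = 0.0049).

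In single enterocyte-like cells 24 of 44 such genes rose and 1 fell from crypt to tip (31.4% and 28.3% of all genes). Between mid-villus and tip 8 rose and 4 fell without the mouse as a block, beside 11.2% and 10.2% of all genes, with a median of -0.07 beside -0.03 over all genes. Among the 8 that rose were Klf4 (1.63, edgeR adjusted p = 0.0091), Dgat2 (1.13, adjusted p = 0.013), Lipe (0.98, adjusted p = 0.047), Plin3 (0.95, adjusted p = 0.026) and Hnf4a (0.95, adjusted p = 0.027). The 4 that fell, named after their values were seen apart from Sar1b, were Fabp1, the liver-type fatty acid binding protein (-1.62, edgeR adjusted p = 0.0031), Plin2, a droplet coat protein (-1.51, adjusted p = 0.025), Sar1b (-1.05, adjusted p = 0.026) and Plpp1, a lipid phosphatase (-0.83).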

How the data were processed

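UMI counts per gene and well were deposited by the authors for clumps (38454111 UMIs, 17162 wells, 45 plates) and single cells (39137313 UMIs, 16850 wells, 44 plates). Per the labels and the study's methods, reads were split with bcl2fastq 2.15.0.4, aligned with STAR to GRCm38 and counted with zUMIs. Every well matched a sample. Plates reuse the same well barcodes, so wells were identified by barcode and plate.

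Clumps with 200 genes, over 500 UMIs and at most 30% mitochondrial UMIs were kept, without the 2% lowest in landmarks. A clump's zone was the landmark list it correlated with best. Single cells (200 to 7000 UMIs, 150 to 1500 genes, at most 40% mitochondrial) were clustered without the members and lipid lists (2000 variable genes, 25 components, 20 neighbours, Leiden resolution 0.1, best of 20 runs, igraph 0.11.9) and named "-like" from marker lists. Doublets were removed by no caller, only by the ceilings of 7000 UMIs and 1500 genes. Sums per mouse and zone of at least 5 clumps or cells were tested with edgeR 4.0.16 (TMM, filterByExpr, quasi-likelihood, Benjamini-Hochberg over all genes tested, threshold 0.05), with zone as the only term. DESeq2 1.42.0 and other settings were alternatives. The tests were first run on simulated counts with known changes.

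Zones of a mouse share an animal within each table. Deviations from zone means correlated by 0.218 to 0.546 in 15 of 15 same-mouse pairs of clump sums, 0.0727 to 0.620 over 12 pairs in single cells (8 above 0.1) and 0.0208 to 0.480 over 51 pairs by size (43 above 0.1), so values with the mouse as a block are given where the call of a member changes. The other lipid genes are given without the block only.

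All members were named. From each lipid list the up to 3 genes were named with the largest tip to crypt change in clumps among those called and changed the same way in 5 of 5 mice, besides Hnf4a, Hnf4g and Ppara, and the 5 genes most like the members. The members, lists and motifs were chosen with earlier results of these data known.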

Additional observations from a re-analysis of the deposited data

Results flagged for a closer look

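Mogat2 had the 3 values that stood apart from their group, out of 70 groups of mice examined, where chance gives about 1 in 20. In tip clumps its lowest mouse, mouse 4, was at 130.0 CPM against a median of 247, and this value rests on 9 UMIs. In mid-villus single enterocyte-like cells the lowest mouse, mouse 1, was at 117 CPM against a median of 210.3, and over all enterocyte-like cells the same mouse was at 65.3 CPM against 146.

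Wells outside the comparisons also carried the members. Near-empty plate positions held 9254 CPM of the 10 genes summed, though their highest wells held 1292 to 2693 UMIs. Clumps of mouse 6, sorted above 2n, held 2965 CPM in crypt, 19423 in mid-villus and 30541 at the tip, the same order as in mice 1 to 5.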

How the results depend on the processing

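In the fits, all 10 members kept their direction in tip against crypt and mid-villus against crypt, in clumps and single cells, under every alternative run, but in single cells scaled to total UMIs (CPM) Mogat2 was lower at the tip than in crypt in 4 of 4 mice and Mttp in 3 of 4. Between mid-villus and tip in clumps, Dgat1 alone changed sign, to -0.15 with the axis from Ada and ribosomal genes, -0.0354 without the low-count filter, -0.00999 with background subtracted, and -0.0913 and -0.0309 without replicates 1 and 2 (range with 1 mouse left out -0.0913 to 0.254). The 4 members called there became 8 with the replicate block (7 higher, 1 lower), 2 without the filter, 6 with DESeq2, 1 in pairs only and 0 with the Ada axis, and 2 to 5 with 1 mouse left out (2 without mouse 1, 2 or 3). In single cells the 4 became 6 (5 higher, 1 lower) with the block and with DESeq2, 2 without the filter and 1 to 5 with 1 mouse left out (1 without mouse 2 or 4, 2 without mouse 3). Against crypt, clump calls stayed at 8 or more of 10. Genes called between mid-villus and tip clumps were 522, and 1517 with the block, 949 with all landmarks but the members, 285 without the filter, 187 in pairs only and 3 with the Ada axis, which also gave 1072 for 3406 (tip against crypt) and 699 for 2539 (mid-villus against crypt). DESeq2 called 371 higher and 389 lower where edgeR called 312 and 210. With 1 mouse left out the 522 became 207 to 595. In single cells 895 became 1450 with the block and 168 to 1088 with 1 mouse left out, and without the filter 1448 became 2297 (mid-villus against crypt) and 2505 became 4079 (tip against crypt). For size, 1, 1 and 3 genes became 77, 13 and 17 with the block and 66, 7 and 10 without the filter. DESeq2 size factors moved the median of all genes from -0.07 to -0.28 for tip against crypt clumps. The causes were not tested. Sums of 69227 UMIs limit tip clumps of low genes.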

Other observations

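Within tip clumps, the rank correlation between members was highest for Apoa1 with Apoa4, with a median rho of 0.645 over the 4 mice that had at least 50 tip clumps (0.532 to 0.689). Apoa4 with Apoc2 (0.542) and with Apoc3 (0.540) followed, and Apoa1 with Apoc3 (0.510). The lowest were Apoa4 with Dgat1 (-0.0768) and Apob with Mogat2 (-0.0719). The clumps share mice and plates and the counts of Dgat1 and Mogat2 are sparse, so these values are a description.

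In 5199 single cells the hepatocyte markers gave 262 of 11751420 UMIs, of which Serpina1a gave 162, Ttr 91, Alb 9 and Fgb 0.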
